A study of Drosophila melanogaster with 2 samples.

Results

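The genes described here are those named for the proteins of the cytosolic ribosome of Drosophila melanogaster. They were taken from the Ensembl annotation as the protein-coding genes whose symbol starts with RpL or RpS followed by a digit, together with RpLP0, RpLP1, RpLP2 and sta. This rule gave 92 of the 13945 protein-coding genes on the chromosome arms with peaks. By symbol, 50 were counted for the large subunit, 39 for the small subunit and 3 for the stalk. The 50 include RpL24-like, the homologue of a ribosome assembly factor of yeast. The rule used names and no measured value. Sites of the NF-κB factor Dif were mapped by ChIP-seq in wandering third-instar larvae, taken whole with the sexes mixed. All animals came from a transgenic line that stably expresses Dif with GFP at its C terminus, and the precipitation was made with an antibody to GFP. There is 1 group, Dif-GFP larvae, with biological replicates 3 and 4, and no second genotype, treatment or stage, so every comparison below sets ribosomal protein genes against all protein-coding genes in the same libraries. Chromatin from a whole larva mixes all of its tissues, and the labels do not name the promoter that drives the transgene. A control experiment named in the labels was not used here.

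Ribosomal proteins assemble with ribosomal RNA into the large and the small subunit, and RpLP0, RpLP1 and RpLP2 form the stalk that recruits translation factors. Their genes are transcribed in nearly every cell, and losing 1 copy of many of them gives the Minute phenotype of slow growth and thin bristles. In flies their promoters are known for a TCT initiator, a pyrimidine-rich start site that uses TRF2 in place of the TATA-binding protein, and for sites of the factors M1BP (Motif 1) and DREF (the DRE). Dif acts at the end of the Toll pathway of fly immunity and binds κB sites.

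The authors deposited 4 peak lists on build dm6 that are used here. The IDR list holds the 4175 peaks that passed a threshold on the irreproducible discovery rate, which asks whether replicates rank the same peaks. The pooled list and the list of each replicate hold 30000 regions each, peaks and background together, ranked by the authors' signal. A peak or region was assigned to each gene with a transcription start site (TSS) no more than 500 bp from its summit. The rank of a gene in a list is that of its strongest such summit there, whose position can differ between lists. The IDR peaks are the strongest 4175 of the pooled list, so those lists are not independent of each other. Depth cannot be read from peak lists and is unknown here, and signal is compared only within a list.

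Promoters of 5 ribosomal protein genes with an IDR peak show the elements searched for, of which the TCT, the DRE and the Motif 1 core were frequent in this set and the κB site was rare. They are reference sequence of the Release 6 assembly (dm6), 175 bases on the sense strand, starting 150 bases before the annotated TSS. Capitals mark the TCT initiator, the DRE (TATCGATA), the Motif 1 core (GGTCACAC), a TATA box (TATAAA), the E-box CAGCTG and a κB site, each on either strand except the TCT. RpL3 encodes a large-subunit protein next to the peptidyl transferase centre, RpS6 is the classical substrate of S6 kinase, and RpL23A, RpL30 and RpS4 are further subunit proteins. RpL3 and RpL23A show the TCT alone, RpL30 joins it to a Motif 1 core, RpS6 to a DRE, and RpS4 has a κB site and no TCT.
RpL3, chr3R:11221744-11221918, plus strand: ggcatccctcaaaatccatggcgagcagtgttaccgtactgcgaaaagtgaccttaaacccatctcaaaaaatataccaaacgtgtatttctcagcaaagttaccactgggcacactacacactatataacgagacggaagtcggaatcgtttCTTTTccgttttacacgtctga
RpL23A, chr3L:1668630-1668804, minus strand: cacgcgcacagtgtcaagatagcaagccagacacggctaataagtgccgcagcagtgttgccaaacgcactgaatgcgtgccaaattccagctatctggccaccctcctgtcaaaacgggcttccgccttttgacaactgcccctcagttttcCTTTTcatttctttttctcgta
RpL30, chr2L:19009213-19009387, minus strand: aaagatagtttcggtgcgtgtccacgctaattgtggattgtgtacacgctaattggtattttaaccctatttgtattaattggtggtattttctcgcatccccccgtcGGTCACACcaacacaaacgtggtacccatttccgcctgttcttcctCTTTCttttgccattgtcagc
RpS6, chrX:7901307-7901481, minus strand: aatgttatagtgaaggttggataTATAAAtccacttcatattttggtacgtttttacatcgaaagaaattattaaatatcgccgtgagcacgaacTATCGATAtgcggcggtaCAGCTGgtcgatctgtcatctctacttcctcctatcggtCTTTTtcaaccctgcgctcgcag
RpS4, chr3L:13041606-13041780, plus strand: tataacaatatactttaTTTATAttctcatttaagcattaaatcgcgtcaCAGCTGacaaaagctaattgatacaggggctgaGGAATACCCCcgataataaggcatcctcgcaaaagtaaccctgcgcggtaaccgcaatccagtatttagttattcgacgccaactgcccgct

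An IDR peak lay at 31 of the 92 ribosomal protein genes (33.7%), against 15.3% of all protein-coding genes. In the pooled list 81 had a summit (88%), against 50.5% of all genes. The large subunit had an IDR peak at 16 of 50 genes (32%), the small subunit at 14 of 39 (35.9%) and the stalk at 1 of 3. With the nearest TSS alone counted, 26 of 92 had an IDR peak (28.3%), against 13.8% of all genes. The difference was there in each replicate: 81 genes had a summit in replicate 3 (88%), against 50.3% of all genes, and 77 in replicate 4 (83.7%), against 51.5%. Both replicates had a summit at 72 of them (78.3%), against 38.6% of all genes. When regions of the pooled list were limited to a q value of at most 0.01, 58 ribosomal protein genes kept one (63%), against 25.4% of all genes. These were 36 of the 50 large-subunit genes, 20 of the 39 small-subunit genes and 2 of the 3 stalk genes.

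These peaks were mostly of middle rank. Among the strongest 2087 of the 4175 IDR peaks lay those at 9 ribosomal protein genes (9.78%), close to the 8.42% of all genes. The median signal at the 31 genes was 120, with a range of 85.7 to 478, against a median of 145 over all genes with an IDR peak. Their median rank in the IDR list was 2494, against 1836 for all genes with a peak. Down the pooled list, the strongest 1000 regions reached 3.26% of ribosomal protein genes and 4.52% of all genes. Regions ranked 2001 to 3000 then gave 11 further ribosomal protein genes (12%), against 3.33% of all genes, and those ranked 4176 to 7500 gave 23 (25%), against 8.63%. By the strongest 7500 regions, 54 ribosomal protein genes had a summit (58.7%), against 23.9% of all genes. Over the genes with a pooled summit, the best one had a median signal of 71.8 at ribosomal protein genes, against 53.5 over all genes.

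**Figure D1:**
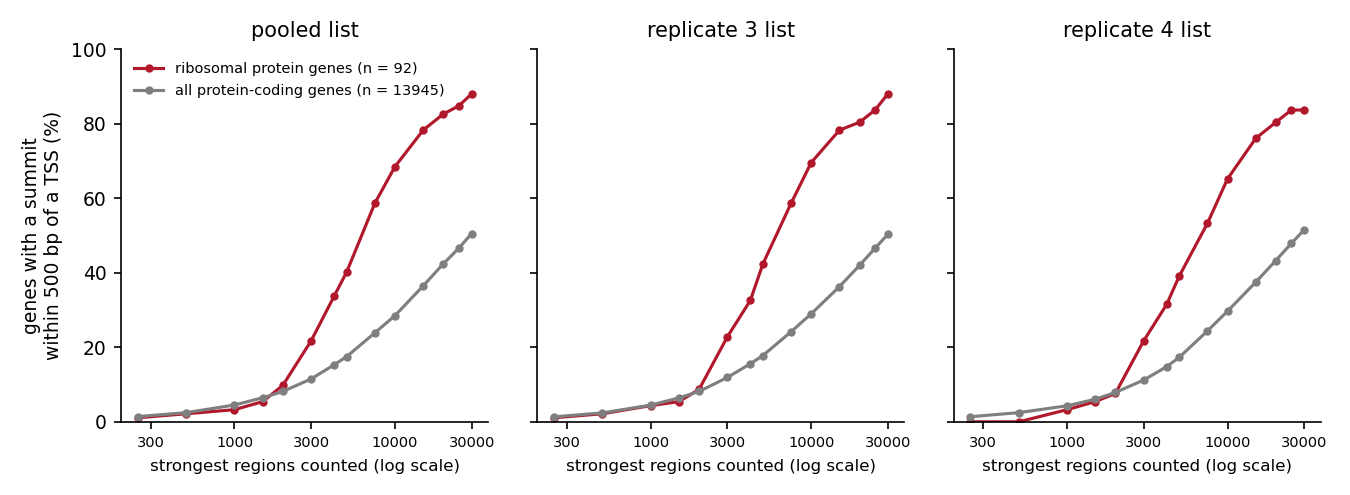
Share of genes with a summit within 500 bp of a TSS (vertical axis, %) among the strongest regions of each list (horizontal axis, number of regions, log scale), for ribosomal protein genes (red) and all protein-coding genes (grey). The curves run together up to about 2000 regions in the pooled list (9.78% and 8.15%) and then part, to 88% and 50.5% at 30000.

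The 3 strongest IDR peaks within reach of a ribosomal protein gene sat closer to another gene. RpL7-like, a paralogue of RpL7, had a peak at chr2L:12055954-12056130 with a signal of 478, which ranked 189 in the IDR and pooled lists, 167 in replicate 3 and 519 in replicate 4. Its summit lay 297 bp upstream of the RpL7-like TSS, in an annotated 5′ UTR and 13 bp from a TSS of JhI-21, an amino acid transporter gene. RpS20, of the small subunit, had a peak at chr3R:20821804-20821988 with a signal of 321, ranked 449 in the IDR and pooled lists, 432 in replicate 3 and 983 in replicate 4, and its summit was 290 bp upstream and 43 bp from the TSS of CG17271. RpS28a had a peak at chr3R:30022145-30022215 with a signal of 240, ranked 777 in the IDR and pooled lists, 742 in replicate 3 and 1536 in replicate 4. That summit lay 485 bp downstream of the RpS28a TSS, beyond the 3′ end of this short gene. It was 58 bp from the TSS of Mgat2, a glycosyltransferase gene. The other such cases were RpS25, whose summit was 12 bp from the TSS of CG4820, and RpLP0, whose summit was 201 bp from that of CG7130. So 4 of the 9 peaks among the strongest 2087 were nearer to a neighbour. Which gene a summit belongs to cannot be told from its position.

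Of the peaks nearest to a ribosomal protein gene, RpL7 had the strongest. It encodes a large-subunit protein, and its peak at chr2L:10200936-10201179 lay in an annotated 5′ UTR, with the summit 42 bp upstream of the closest of its TSSs and a signal of 186. It ranked 1212 in the IDR and pooled lists, 1057 in replicate 3 and 3292 in replicate 4. The peak of sta, which encodes the fly homologue of RPSA, was at chrX:1483160-1483403, with the summit 10 bp downstream of the TSS and a signal of 175. It ranked 1350 in the IDR and pooled lists, 967 in replicate 3 and 4290 in replicate 4. Both were thus stronger by rank in replicate 3.

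RpL3 and RpL23A, shown above with a TCT each, ranked better in replicate 4. The RpL3 peak at chr3R:11221748-11221991 had its summit 24 bp upstream of the TSS and a signal of 153, and ranked 1681 in the IDR and pooled lists, 2019 in replicate 3 and 1129 in replicate 4. The RpL23A peak at chr3L:1668579-1668822 had its summit 47 bp upstream and a signal of 150, and ranked 1724, 2201 and 993 in the same lists. The RpS4 peak at chr3L:13041632-13041717 had its summit 75 bp upstream close to the κB site shown above, with a signal of 142. It ranked 1906 in the IDR and pooled lists, 2316 in replicate 3 and 2534 in replicate 4. RpS25 followed at chr3R:11216497-11216574 with a signal of 138, and ranked 1985 in the IDR and pooled lists, 2300 in replicate 3 and 2541 in replicate 4.

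RpL30, RpS16 and RpL39 complete the 12 strongest. The RpL30 summit, in a peak at chr2L:19009088-19009331, was 27 bp downstream of the TSS, with a signal of 132 and ranks of 2140 in the IDR and pooled lists, 1644 in replicate 3 and 2308 in replicate 4. The RpS16 peak at chr2R:22606075-22606318 had a signal of 131, its summit in an intron 70 bp downstream, and ranks of 2153, 1922 and 2570 in the same lists. The RpL39 peak at chr2R:24062332-24062575 had a signal of 129, its summit 23 bp upstream, and ranks of 2203, 2821 and 3927. All 3 were among the strongest 4175 regions of each replicate.

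The remaining IDR peaks had signals of 126 down to 85.7. For the large subunit they were at RpL27A, RpL38, RpL41, RpL15, RpL10, RpL36, RpL37A, RpL34b, RpL28 and RpL22. For the small subunit they were at RpS3A, RpS6, RpS27A, RpS12, RpS29, RpS18, RpS26 and RpS28b, and for the stalk at RpLP0. RpS27A is made as a fusion with ubiquitin, and its summit was 46 bp from its own TSS and from that of Ip259. RpS12 is known from cell competition, in which cells with fewer ribosomal proteins are lost next to wild-type cells, and its summit was 18 bp downstream of the TSS. RpS3A is the single member on arm 4, and its peak, with a signal of 125, was 1 of the 12 IDR peaks of that arm. Just inside the limit of 500 bp lay RpS28a at 485 bp. Just outside lay IDR summits 541 bp from RpS19b, with a signal of 87.5, and 588 bp from RpL26, with a signal of 248, both nearer to another gene.

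**Figure D2:**
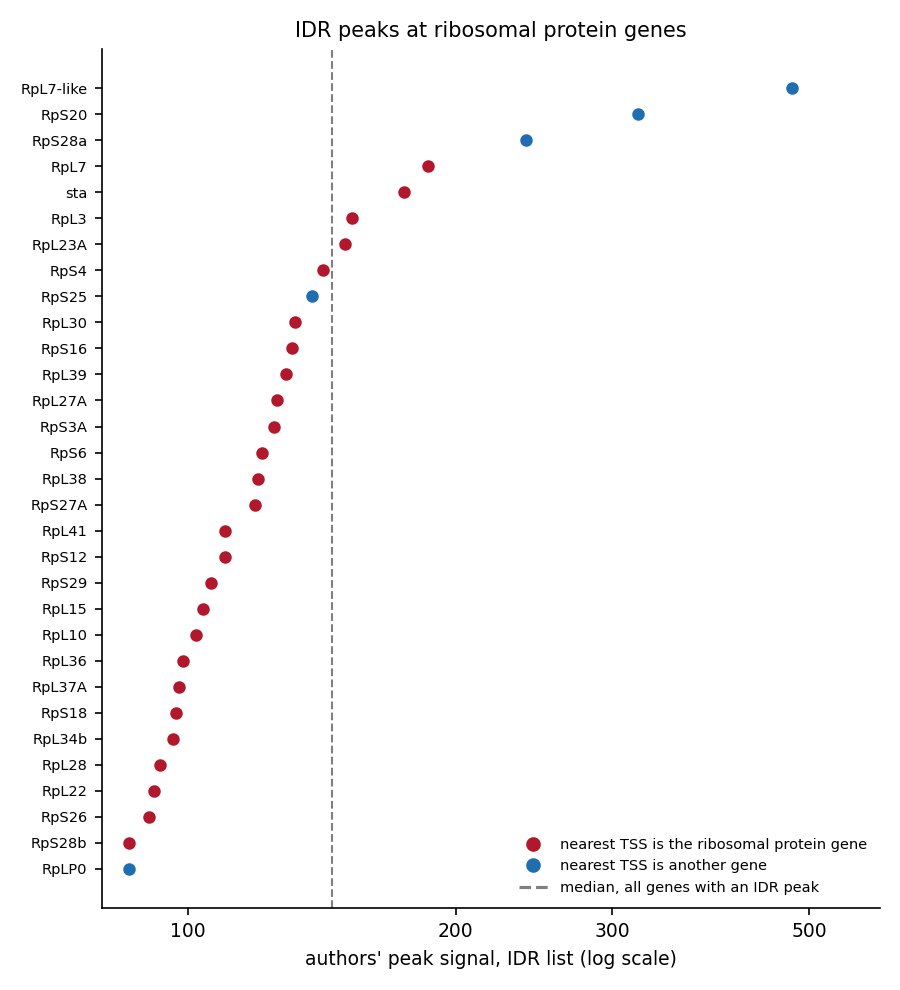
Authors' signal of the IDR peak (horizontal axis, log scale) at each of the 31 ribosomal protein genes that had one, in red where the nearest TSS is that gene's and in blue where it is a neighbour's, with the median of all genes with an IDR peak, 145, as a dashed line. The 3 strongest are blue, and 24 of the 31 lie below the line.

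At most other ribosomal protein genes a weaker summit was present. The strongest without an IDR peak were all of the large subunit. RpL14 ranked 4420 in the pooled list with a signal of 80.8, RpL37-1 ranked 4435 with 80.6, RpL8 ranked 4443 with 80.5, RpL19 ranked 4632 with 78 and RpL17 ranked 4709 with 77.1. They fell just short of the 4175 strongest regions. In 6 genes no list had a summit (6.52%, against 34.9% of all genes). These were RpL10Aa, RpL22-like, RpL37-2, RpL40, RpS15Ab and RpS28-like, and RpL40 is the one that is not a paralogue of another member by name. RpL40 encodes the other ubiquitin fusion of the ribosome.

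Paralogues differed from each other. In 4 of the 12 pairs taken by name, 1 gene had a summit in 3 or 4 lists and its partner in 0. RpL22 had an IDR peak with a signal of 91.6, and RpL22-like, a paralogue known from the testis, had no summit. RpL10Ab, RpL37-1 and RpS15Aa were in 3 lists each, and RpL10Aa, RpL37-2 and RpS15Ab in 0. RpL34b had an IDR peak with a signal of 96.1, and RpL34a ranked 7378 in the pooled list. RpL24 was in 3 lists and RpL24-like, the homologue of a ribosome assembly factor of yeast, in 2. Of the tandem pair RpS14a and RpS14b, RpS14b ranked 6041 in the pooled list and RpS14a 28764, though RpS14a ranked 3352 in replicate 4. The pairs RpS5a and RpS5b, RpS10a and RpS10b, and RpS19a and RpS19b were in 1 or 2 lists each. RpL7 and RpL7-like, and RpS28a and RpS28b, had IDR peaks at both genes, with signals of 186 and 478, and of 240 and 85.8. The RpL7-like summit, however, lay 13 bp from a TSS of JhI-21, and the RpS28a summit 58 bp from that of Mgat2. Their signals need not be those of the paralogues. Near-identical copies can share reads, and their placement is not described in the sources used here.

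The ranks of the 2 replicates followed each other loosely at these genes. Over the 72 ribosomal protein genes with a summit in both, Spearman's rho between the ranks was 0.29, against 0.64 over 5384 genes, given as a description of genes that share both libraries. Of the 72, 46 had the better rank in replicate 3 (63.9%, against 51.3% of all genes). Among the strongest 4175 regions, replicate 3 had 30 ribosomal protein genes (32.6%, against 15.6% of all genes) and replicate 4 had 29 (31.5%, against 14.8%), but the same 16 stood in both (17.4%, against 10.6%). These 16 were RpL22, RpL23A, RpL3, RpL30, RpL34b, RpL38, RpL39, RpL41, RpL7, RpL7-like, RpS16, RpS20, RpS25, RpS28a, RpS3A and RpS4, and all had an IDR peak.

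Single genes show how far the ranks parted. RpS18 had an IDR peak and ranked 2616 in replicate 3, but 17905 in replicate 4. RpS27A ranked 2580 in replicate 3 and 15265 in replicate 4, and RpL15 ranked 2555 and 14224. The reverse held for RpL24, which ranked 7676 in replicate 3 and 1269 in replicate 4, and for RpL32, known as rp49 and widely used as a reference transcript, which ranked 13716 and 2701. These 5 genes were chosen after their values were seen. Of the 31 genes with an IDR peak, 27 were in the strongest 4175 of replicate 3 (87.1%, against 91.6% of all genes with an IDR peak) and 19 in those of replicate 4 (61.3%, against 73.7%). RpL37A had an IDR peak and was in neither. A summit was found in replicate 3 alone at RpL13, RpL17, RpL24-like, RpL4, RpL7A, RpL9, RpS10a, RpS19a and RpS5a, and in replicate 4 alone at RpL21, RpS10b, RpS14a, RpS19b and RpS5b. The size range in the labels, given with no unit, starts at 200 and ends at 275 in replicate 3 and at 300 in replicate 4, and its part in these differences was not tested. Where both had one, the closest summits of both replicates lay a median of 45.5 bp apart at ribosomal protein genes, against 55 bp over all genes, and within 100 bp at 54 of 72 (75%, against 66.7%).

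**Figure D3:**
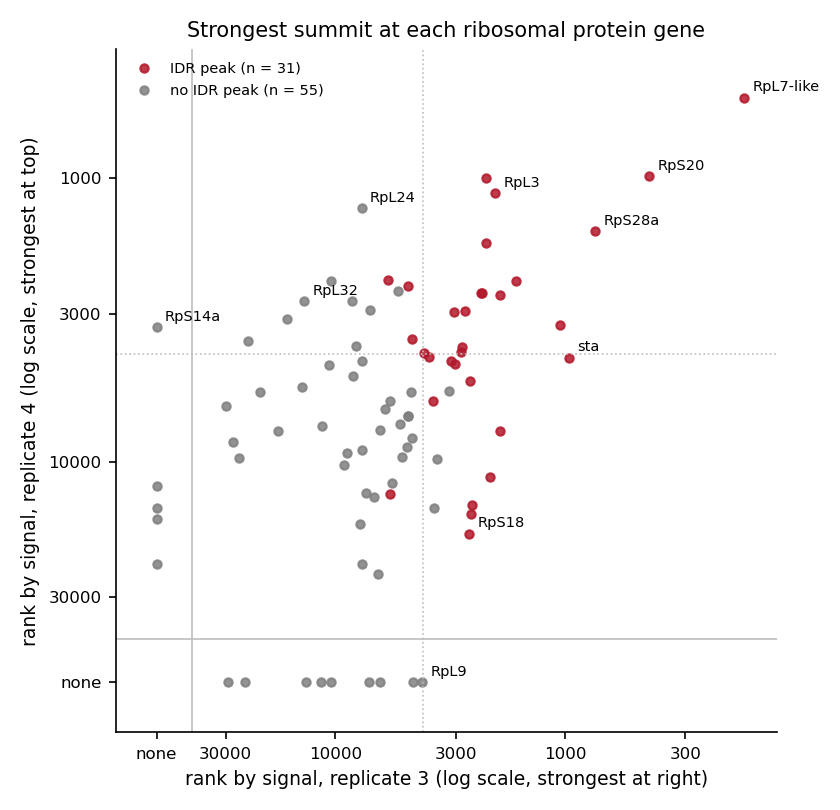
Rank by signal of the strongest summit at each ribosomal protein gene in replicate 3 (horizontal axis, log scale) and replicate 4 (vertical axis, log scale), strongest at the upper right, with genes that had no summit in a replicate at "none" and dotted lines at rank 4175. Red points have an IDR peak (31 genes) and grey points have none (55 genes), and the 6 genes with no summit in either are not drawn.

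Summits at ribosomal protein genes sat close to the TSS. In the IDR list the median distance was 44 bp, against 76 bp over all genes with a peak. Of the 31 summits, 20 lay within 50 bp (64.5%, against 35.4%) and 25 within 100 bp (80.6%, against 60.1%). An IDR summit within 200 bp was present at 26 of the 92 genes (28.3%, against 12.6% of all genes) and within 100 bp at 25 (27.2%, against 10.1%). Downstream of the TSS lay 15 and upstream 16, whereas 31.6% of all genes with an IDR peak had it downstream. The signed median was -6 bp for ribosomal protein genes and -49 bp for all genes, where minus is upstream. With the canonical TSS of each gene alone, the median for ribosomal protein genes was 16 bp downstream, so its sign depends on the TSS chosen. In the pooled list 61.7% of the 81 summits lay downstream, against 40.1% of all. Replicate 3 had a median distance of 33 bp at ribosomal protein genes, against 101 bp over all genes, and replicate 4 had 72 bp, against 124 bp.

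**Figure D4:**
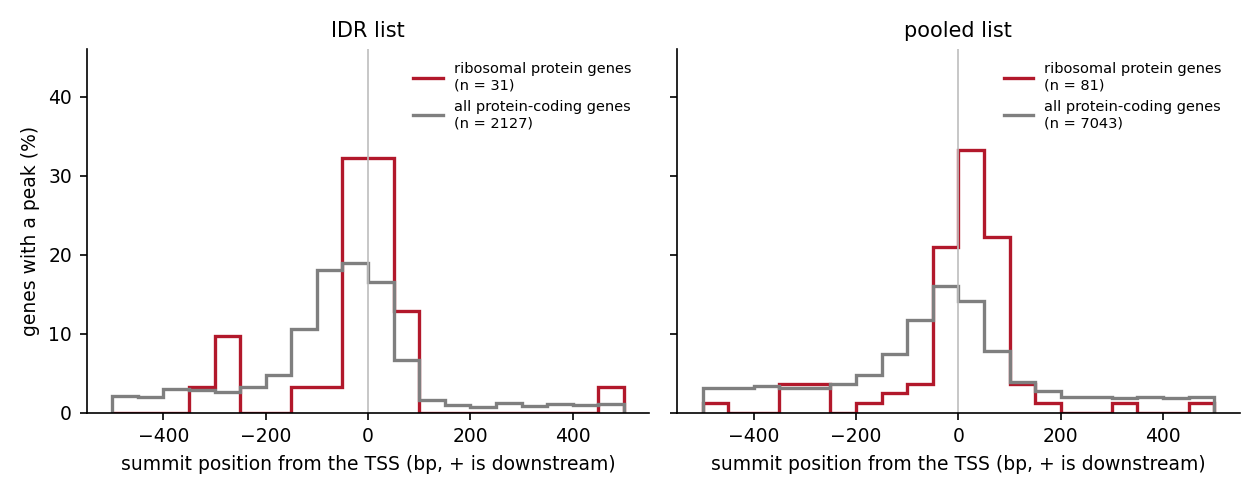
Position of the strongest summit relative to the nearest TSS of the gene (horizontal axis, bp, in bins of 50 bp) as a share of genes with a peak (vertical axis, %), for ribosomal protein genes (red) and all protein-coding genes (grey) in the IDR and pooled lists. In the IDR list 64.5% of the ribosomal protein genes' summits lie within 50 bp of the TSS, against 35.4% of all genes'.

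Most of these promoters had a match to the TCT initiator near the TSS. It was searched as CTTTC or CTTTT on the sense strand with its C within 10 bp of the canonical TSS, and was present at 59 of 92 ribosomal protein genes (64.1%, 95% Wilson interval 53.9% to 73.2%), against 6.8% of all genes. Of the 59 matches, 1 had its C at the annotated TSS, 5 within 1 bp and 17 within 2 bp. With any annotated TSS allowed, the share was 82.6%, against 9.54% of all genes. In mitochondrial ribosomal protein genes, which encode the ribosome of the organelle, it was 4.11% at the canonical TSS and 5.48% with any TSS. The sequences below, 30 bases on the sense strand starting 15 bases before the annotated TSS, show the TCT in capitals at 4 genes with an IDR peak and at RpL40, which had no summit in any list and was added after its values were seen.
RpL3, chr3R:11221879-11221908, plus strand: cggaagtcggaatcgtttCTTTTccgtttt
RpL23A, chr3L:1668640-1668669, minus strand: aactgcccctcagttttcCTTTTcatttct
RpL30, chr2L:19009223-19009252, minus strand: atttccgcctgttcttcctCTTTCttttgc
RpS6, chrX:7901317-7901346, minus strand: tacttcctcctatcggtCTTTTtcaaccct
RpL40, chr2L:4227684-4227713, plus strand: tcggcggcggccacactctCTTTTcccttt

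The TCT was about as frequent in ribosomal protein genes with a peak as in those without. It was present at 20 of the 31 with an IDR peak (64.5%) and at 39 of the 61 without (63.9%). Read the other way, 33.9% of ribosomal protein genes with a TCT and 33.3% of those without had an IDR peak. Among all genes, 20.4% of the 948 with a TCT had an IDR peak, and 14.9% of the 12997 without. With no TCT at the canonical TSS, RpL7, sta, RpS4 and RpS12 still had an IDR peak.

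The DRE and the Motif 1 core were also frequent. All motifs were searched on both strands from 250 bases before the canonical TSS to base 50 of the transcript, and motifs of different names may overlap. The DRE (TATCGATA) was in 28 promoters of ribosomal protein genes (30.4%), against 8.94% of all genes and 20.5% of mitochondrial ribosomal protein genes. RpS6, RpL36, RpL28 and RpS12 were among the 28. The Motif 1 core (GGTCACAC) was in 14 (15.2%), against 7.54% of all genes and 11% of mitochondrial ribosomal protein genes. RpL7, RpL30 and sta were among the 14. Within 100 bp of the TSS the Motif 1 core was in 10.9%, against 6.52% of all genes and 11% of the mitochondrial ones. The E-box CACGTG, the sequence that Myc and Max bind, was in 10 (10.9%), against 4.26% of all genes. The E-box CAGCTG was in 9 (9.78%), against 17.9% of all genes and 54.8% of mitochondrial ribosomal protein genes. The letters TATAAA, at any position and on either strand, were in 42 (45.7%), against 45.3% of all genes. Within 100 bp of the TSS they were in 17.4%, against 28.9% of all genes. A DRE was at 10 of 31 genes with an IDR peak (32.3%) and 18 of 61 without (29.5%), and the Motif 1 core at 5 (16.1%) and 9 (14.8%). TATAAA differed more: it was at 16 of the 31 (51.6%) and 26 of the 61 (42.6%). Within 100 bp of the TSS it was at 10 of the 31 (32.3%) and 6 of the 61 (9.84%), against 28.9% of all genes.

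The GAGA motif (GAGAGAG) was in 0 of the 92 promoters, with a Wilson interval up to 4.01%. It was in 6.2% of all promoters and in 18.6% of those of genes with an IDR peak. Mitochondrial ribosomal protein genes also mostly lacked it, with a match in 1 of 73 promoters (1.37%). With any annotated TSS allowed, 1 of the 92 genes had it (1.09%), against 9.08% of all genes. Within 100 bp of the IDR summits themselves it was present at 1 of the 31 (3.23%), against 34.6% of all 4175 IDR summits. That 1 was the RpL7-like summit, which lies nearer to JhI-21. The DRE was within 100 bp of 4 of the 31 (12.9%), against 1.63% of IDR summits, and the Motif 1 core of 4 (12.9%), against 2.61%. CACGTG was there at 5 (16.1%), against 3.47%, TATAAA at 9 (29%), against 11.3%, and CAGCTG at 3 (9.68%), against 13.6%. κB sites were rare. A κB match was in 3 of the 92 promoters (3.26%), those of RpS20, RpS4 and RpL11, against 2.25% of all genes, and within 100 bp of 1 of the 31 IDR summits, that of RpS4, against 1.25% of IDR summits. The 31 summits lie within 500 bp of a TSS by the rule, but only 2301 of the 4175 IDR peaks lie so at protein-coding genes. The shares over all IDR summits thus differ in position as well as in genes. A match or its absence describes these letters alone and says nothing of which factor was there.

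**Figure D5:**
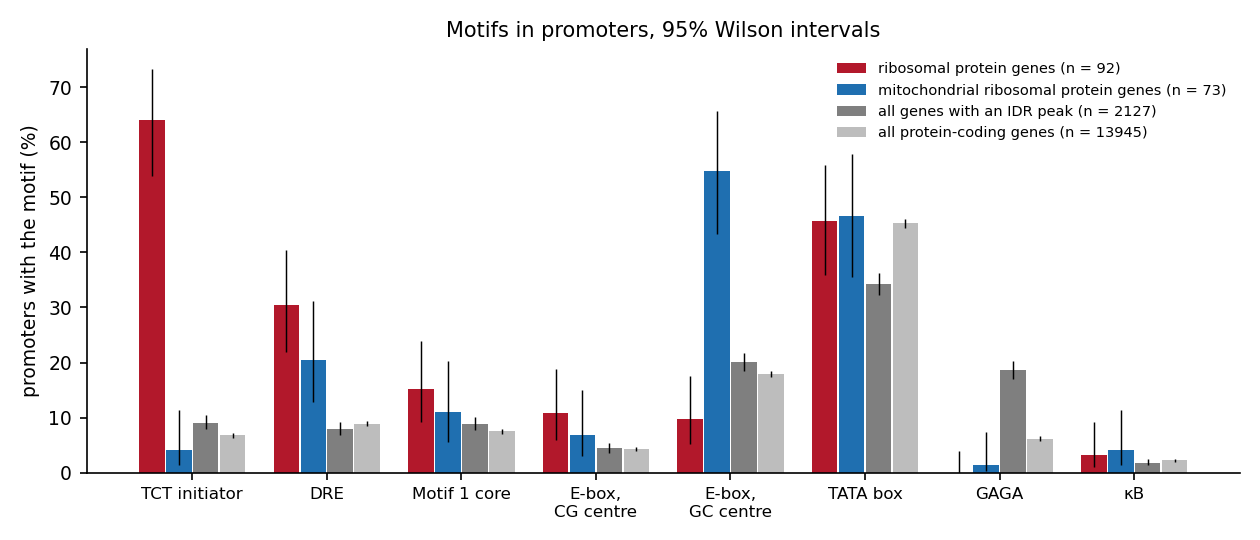
Share of promoters with each motif (vertical axis, %; bars with 95% Wilson intervals) in ribosomal protein genes, mitochondrial ribosomal protein genes, all genes with an IDR peak and all protein-coding genes; the E-box with CG at its centre is CACGTG and that with GC is CAGCTG. The TCT initiator stands at 64.1% in ribosomal protein genes against 6.8% in all genes, and GAGA at 0% against 18.6% in genes with an IDR peak. The label TATA box stands for the letters TATAAA on either strand.

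Ribosomal protein genes are short, with a median span of 1326 bp against 2166 bp for all protein-coding genes. A divergent neighbour with its TSS within 500 bp was present at 35 (38%), against 25.4% of all genes. IDR peaks were at 14 of these 35 (40%) and at 17 of the 57 without such a neighbour (29.8%), against 14.2% and 15.6% of all genes with and without one. Many introns of these genes carry small nucleolar RNAs, which guide the modification of ribosomal RNA. Of the 92 genes, 29 host one (31.5%, against 0.602% of all genes). An IDR peak was at 15 of these 29 (51.7%), against 33 of the 84 hosts in all (39.3%), which include the 29. Hosts made up 15 of the 31 ribosomal protein genes with an IDR peak (48.4%) and 14 of the 61 without (23%). By arm, IDR peaks were at 7 of 19 ribosomal protein genes on 2L (14.4% of all genes there), 5 of 20 on 2R (16.2%), 7 of 14 on 3L (15.4%), 6 of 23 on 3R (16.3%), 1 of 1 on arm 4 (10%) and 5 of 15 on X (13.5%).

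Mitochondrial ribosomal protein genes had peaks less often in these lists than cytosolic ones. An IDR peak was at 31 of 92 cytosolic genes (33.7%) and at 7 of 73 mitochondrial genes (9.59%), and a pooled summit at 88% and 53.4%. Over all protein-coding genes the shares were 15.3% for IDR peaks and 50.5% for pooled summits, so the mitochondrial genes were below the first and near the second. The strongest mitochondrial ones were mRpL11 with a signal of 254, mRpL53 with 188 and mRpL13 with 123. The list of ribosome biogenesis genes, which also took in all genes with a symbol starting with Polr1, had an IDR peak at 3 of 31 (9.68%). These were at Polr1E with 223, Polr1D with 126 and Nop56 with 93.9. The 31 include RpL24-like, which is also counted among the 92 cytosolic genes, and eIF6, which is also counted among the initiation factors. Translation initiation factors had an IDR peak at 11 of 44 (25%). The strongest were at eIF2Balpha with 1353, which ranked 12 in the IDR list, eIF1A with 367 and eIF4E1, the cap-binding protein, with 364. The eIF1A summit lay 480 bp downstream of the TSS. Elongation factors had an IDR peak at 3 of 7, which were eEF1alpha1 with 310, eEF2 with 132 and eEF1gamma with 117. Of 12 regulators of growth and of ribosomal protein genes, a list chosen with earlier results known, 6 had one (50%, against 15.3% of all genes). All 6 were among the strongest 2087 peaks, which lay at 8.42% of all genes. They were Trf2, whose product starts transcription at TCT promoters, with 678 and rank 86, Mnt with 396, Thor, the inhibitor of eIF4E, with 347, and Myc, Xrp1 and crc. M1BP and Dref, which encode the factors of Motif 1 and the DRE, had none.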

How the data were processed

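The authors deposited, per the labels and file headers, peaks from anti-GFP ChIP-seq of Dif-GFP larvae (biological replicates 3 and 4), called against a control. Aligner and caller are not given in the sources used. Each region has the authors' signal, whose scaling is not given, and a deposited −log10 q value. Depth is unknown. Lists on dm3 were not used here. Genes and TSSs came from Ensembl release 115 and sequence from Release 6 (RefSeq); as a check of the build, 30540 of 30662 coding sequences (99.6%) begin with ATG, and 0 peaks lie beyond an arm's end. Summits were placed with Python 3.11.15, and Wilson intervals, which cover counting error only, with SciPy 1.17.1; the lookups were tested on simulated data. The members, gene lists and motifs were chosen with earlier results of these data known, so counts are given beside those over all genes, with no p-value. Named were all members with an IDR peak, the 12 strongest in detail, members 400 to 600 bp from a summit, the 5 strongest without an IDR peak, those in no list, paralogues, and the 3 strongest genes of each other list. The names CG4038 and Tor had no match in the annotation. Alternatives were other TSS windows, the canonical or nearest TSS, q limits, other numbers of regions and other motif windows. No paired analysis was possible because there is 1 group.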

Additional observations from a re-analysis of the deposited data

How the results depend on the processing

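Of 76 alternatives tried, 62 stayed within the tolerance set for the value, 13 moved it further and 1 reversed it. For counts of genes the tolerance was a ratio of 1.5, so it includes 58 in place of 81 genes with a pooled summit at a q of at most 0.01, 50 in place of 72 with one in both replicates, and 26 in place of 31 with an IDR peak within 200 bp. Among the strongest 2087 IDR peaks, 9 ribosomal protein genes had one in place of 31. So had 2 mitochondrial ribosomal protein genes, 5 initiation factors, 1 elongation factor and 1 gene of the biogenesis list. Of all genes, 8.42% had one. With the strongest regions alone, as many as in the IDR list, the counts were 31 in the pooled list, 30 in replicate 3, 29 in replicate 4 and 16 in both. With a TSS window of 200 bp the median signal was 114 in place of 120, and 4 mitochondrial genes had a peak. With the canonical TSS the signed median of the summits was 16 bp in place of -6 bp. TATAAA was in 17.4% of promoters when 100 bp to either side of the TSS were searched, against 28.9% of all genes. The TCT was at 82.6% when any TSS was allowed, against 9.54% of all genes. These alternatives count fewer regions, use a shorter window, or allow fewer or more start sites. With 2 replicates and no counts, the error of a single peak's signal could not be estimated.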
